A study of Homo sapiens with 6 samples.

Results

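The kinesin motors were taken from the table of read counts as every gene whose symbol is KIF followed by a number, or by C and a number, and an optional letter A, B or C. This gave 42 genes of 42656 in the table, and antisense and other symbols that start with KIF were left out (9 rows). By their known roles they were divided into 15 mitotic kinesins, 17 transport kinesins and 10 ciliary and other kinesins. RNA came from TOV21G, an established cell line of ovarian clear cell carcinoma, in 2 arms of 3 libraries each. The shMEX3A arm (genotype label MEX3A knockdown) received a lentiviral short hairpin (TRCN230492) against MEX3A, which encodes an RNA-binding ubiquitin ligase, and the shCtrl arm (genotype label WT) received a scrambled hairpin (TRC2-Scramble_ASN0003). Virus was given to both arms at a multiplicity of infection of 50, with harvest on day 3, so the shCtrl cells carry a virus and a hairpin too. The comparison asks how kinesin mRNAs differ when MEX3A is depleted, with 1 hairpin per arm and 1 cell line. The labels do not say whether replicates were grown as separate cultures; p-values therefore refer to the variation among these 6 libraries, part or all of which may be technical.

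Library totals lay between 34662635 and 48228216 counts. Levels are given as CPM, the count of a gene scaled to library size with TMM factors, and differences as log2 fold changes of shMEX3A over shCtrl from edgeR's quasi-likelihood test, called at a Benjamini-Hochberg adjusted p under 0.05 over 15679 tested genes. MEX3A had 19.6, 21.0 and 22.2 CPM in shMEX3A libraries, against 68.8, 70.7 and 67.6 CPM in shCtrl libraries, with no overlap (log2 fold change -1.72, SE 0.046, adjusted p = 1.52e-28, edgeR). Values after ± are SDs of 3 libraries. PAX8, a marker of ovarian clear cell carcinoma, was present at 294 ± 5.20 CPM in shMEX3A and 192 ± 4.11 CPM in shCtrl. The summed level of 5 leukocyte markers was 0.266 to 0.318 CPM in shMEX3A and 0.389 to 0.536 CPM in shCtrl, with CD3E at 0. That of 4 endothelial markers was 0.679 to 0.993 CPM in shMEX3A and 0.572 to 0.723 CPM in shCtrl, with KDR at 0. One of them, CDH5, was called higher, at 22, 22 and 10 counts in shMEX3A libraries and 2, 2 and 1 counts in shCtrl libraries. CDH5 reached the minimum of the low-count filter in 3 shMEX3A and 0 shCtrl libraries, so it was tested only through the arm where it is high. With at least 1 CPM required in 3 libraries, 0 endothelial markers were called higher. The 5 fibroblast markers summed to 8.45 to 10.4 CPM in shMEX3A and 5.01 to 5.36 CPM in shCtrl, nearly all of it DCN, which rose (9.07 ± 0.861 CPM in shMEX3A and 4.86 ± 0.193 CPM in shCtrl).

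Kinesins are motor proteins that bind microtubules and use ATP to walk along them, to slide them or to shorten their ends. Mitotic kinesins build the spindle, move chromosomes and complete cytokinesis, and their mRNAs are known to accumulate in G2 and mitosis, whereas transport kinesins carry vesicles, organelles and RNA at all stages of the cycle. Many genes of G2 and mitosis carry a cell cycle genes homology region (CHR) close to the transcription start, often with CCAAT boxes a short distance upstream, and repressor and activator complexes built around LIN54 and the MuvB core are known to bind that element.

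The kinesin promoters were searched for these elements. RefSeq promoters (GRCh38.p14, 250 bases before to 50 after the start) were at hand for 34 of the 42 genes, with start sites as RefSeq places them, and TTTGAA or TTCGAA was counted as a CHR and CCAAT as a CCAAT box, on both strands. A CHR lay in 11 of 15 mitotic promoters (73.3%), in 1 of 12 transport promoters (8.33%) and in 1 of 7 ciliary and other promoters (14.3%), against 16.6% of all 27305 RefSeq promoters and 10.97% of those of tested genes. A CCAAT box lay in 73.3%, 25.0% and 42.9% of the same 3 classes, against 35.7% of all promoters. The shares of the mitotic class were not particular to motors. Among spindle and midzone partners of the mitotic kinesins, whose levels are given below, a CHR lay in 15 of 21 promoters (71.4%) and a CCAAT box in 76.2%. E2F-like words (TTTCCCGC, TTTCGCGC, TTTGCCGC or TTTGGCGC, both strands) were in 1 mitotic promoter, that of KIF15, where the word ends at the base before the CHR, in 0 of 12 transport promoters and in 1 of 7 ciliary and other promoters, that of KIF25, against 3.33% of all promoters. These are matches of letters, without any measurement of binding.

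The windows below show the CHR of mitotic members that fell, of a member that did not pass the test (KIF18A), of a nearly silent copy (KIF4B) and of KIF24, the ciliary member with the largest fall. Each window is read 5′ to 3′ on the strand of its gene, and capitals mark the CHR word, which in some windows is the reverse complement of TTTGAA.
KIF11 (chr10:92593090-92593119, plus strand): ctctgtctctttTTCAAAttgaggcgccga
KIF23 (chr15:69414282-69414311, plus strand): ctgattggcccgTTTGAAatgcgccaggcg
KIFC1 (chr6:33391815-33391844, plus strand): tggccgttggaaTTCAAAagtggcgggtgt
KIF22 (chr16:29790712-29790741, plus strand): ggcaccggggaaTTCGAAtgggagaggcgg
KIF18A (chr11:28108149-28108178, minus strand): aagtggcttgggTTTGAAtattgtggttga
KIF4A (chrX:70290058-70290087, plus strand): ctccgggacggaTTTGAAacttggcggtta
KIF4B (chr5:155013746-155013775, plus strand): ctctgggagggaTTTGAAacttggcggtta
KIF24 (chr9:34329250-34329279, minus strand): acagcgcgggcgTTCGAActggcgcttggc
No CHR, CCAAT or E2F-like word lay in the promoters of KIF2A and KIF2C, which fell, or of KIF2B, which had no counts. KIF20A, the tested mitotic member with the largest fall, had no CHR word in its window of 300 bases and had 2 CCAAT boxes, which begin 94 and 67 bases before the start. The nearer one, with the reverse complement ATTGG in capitals, reads as follows.
KIF20A (chr5:138179033-138179062, plus strand): cttccctatctgATTGGccgaacgaacgca

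**Figure D1:**
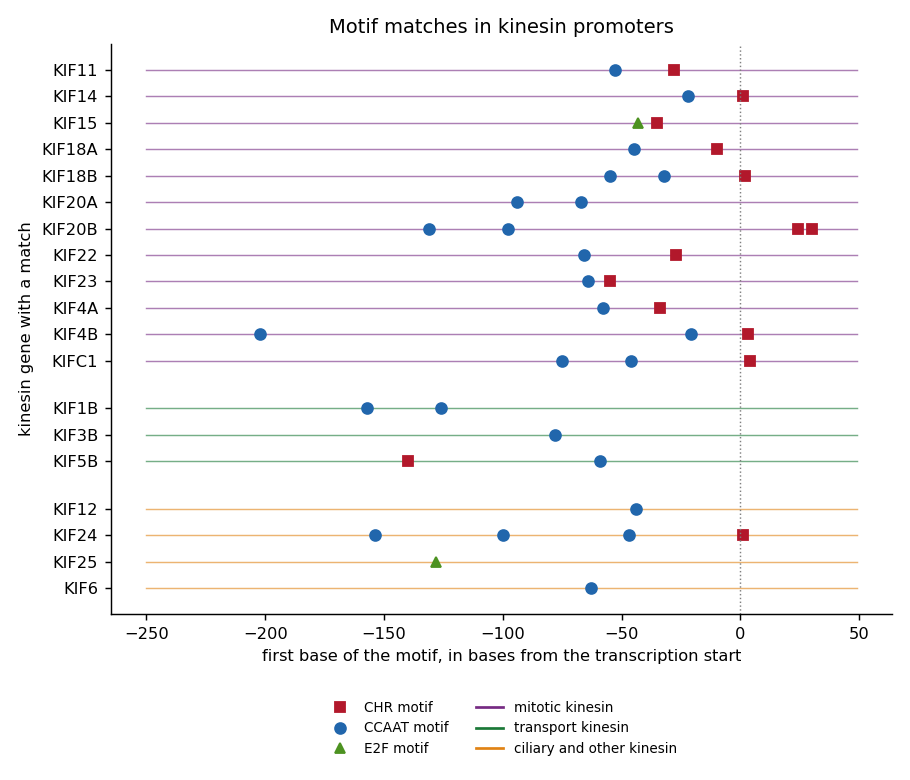
Positions of CHR (squares), CCAAT (circles) and E2F (triangles) matches in the promoters of kinesin genes with at least 1 match, in bases from the transcription start. Matches of CHR in the mitotic genes begin between 55 bases before and 30 bases after the start, while that of the transport gene KIF5B begins 140 bases before it.

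Mitotic kinesins were lower in shMEX3A, and transport kinesins went both ways. Of the 42 genes 37 passed the low-count filter, and KIF6 was the one of these that did not reach the filter's minimum in every library. Among the 37 tested genes 29 passed the test, with 7 higher and 22 lower in shMEX3A. In all tested genes 69.7% passed, 34.0% higher and 35.6% lower, so the 78.4% of tested kinesins that passed lay near the background. The shMEX3A libraries lay entirely below the shCtrl libraries for 22 of the 37 genes and entirely above them for 9, and 6 overlapped. Among all tested genes 36.9% lay entirely below and 35.4% entirely above, or 72.3% in either direction. By class, 12 of 13 tested mitotic kinesins fell and 0 rose, with a median log2 fold change of -0.79. Of 17 transport kinesins 7 rose and 7 fell, with a median of -0.07. With GC content and length offsets 5 transport kinesins rose, as KIF3C and KIF13B lost the call, and KIFC2 joined those that fell. Of 7 tested ciliary and other kinesins 3 fell and 0 rose. The median over all tested genes was -0.01. A fall of at least 1.5-fold was found in 9 mitotic, 2 transport and 3 ciliary or other kinesins, against 13.2% of all tested genes, and a rise of that size in 2 transport kinesins (KIFC3 and KIF17), against 14.8%. With GC content and length offsets KIFC3 (0.57) and KIF5B (-0.51) changed by less than 1.5-fold, while the mitotic KIF22 (-0.69) fell by more than 1.5-fold.

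**Figure D2:**
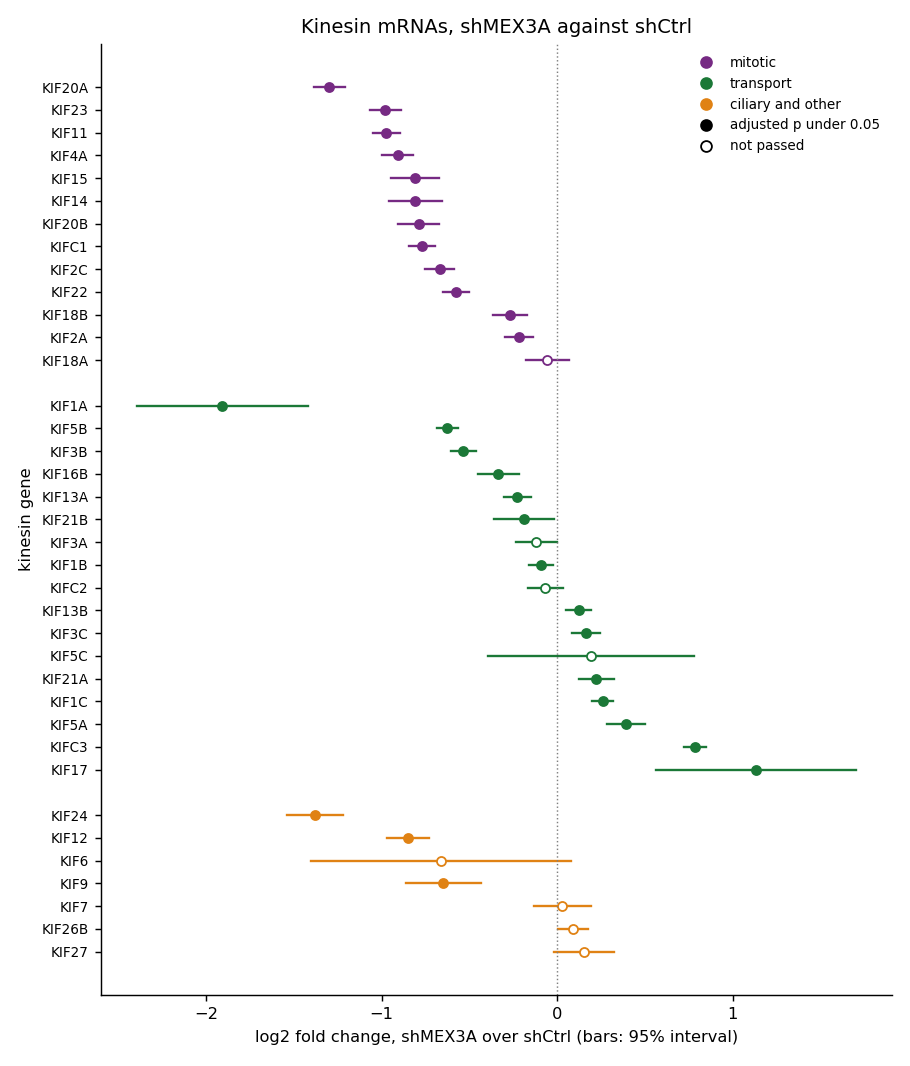
Log2 fold change of shMEX3A over shCtrl for the 37 tested kinesin genes, with the 95% interval as a bar, filled where the adjusted p was under 0.05. All mitotic points lie left of 0, KIF18A with an interval that crosses it, whereas transport kinesins spread from -1.91 (KIF1A) to 1.13 (KIF17).

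The summed level of the mitotic class was 441, 445 and 435 CPM in the shMEX3A libraries, against 720, 720 and 722 CPM in the shCtrl libraries, a ratio of 0.611. The transport class summed to 1461 ± 14.2 CPM in shMEX3A and 1414 ± 13.97 CPM in shCtrl (SD, n = 3 each), a ratio of 1.03, and per kb of exon, which weighs genes by transcript copies, to 176 ± 2.36 in shMEX3A and 177 ± 1.49 in shCtrl. The mitotic total was thus lower in every shMEX3A library than in any shCtrl library. The ciliary and other class summed to 90.7 ± 0.753 CPM in shMEX3A and 111 ± 1.16 CPM in shCtrl.

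**Figure D3:**
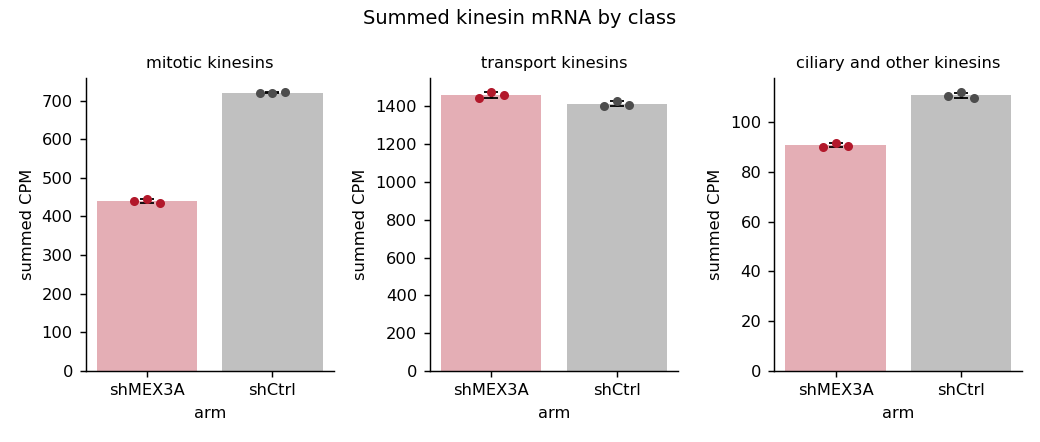
Summed CPM of each kinesin class, as bars for the mean of 3 libraries with SD and points for libraries. The mitotic class lies between 435 and 445 CPM in shMEX3A and between 720 and 722 CPM in shCtrl, and the transport bars differ by a ratio of 1.03.

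Motors that hold the spindle poles apart or focus them all fell. KIF11 (Eg5, kinesin-5), which slides antiparallel microtubules to separate the poles and whose CHR is shown above, had 42.6, 43.9 and 44.1 CPM in shMEX3A libraries, against 84.9, 88.1 and 83.2 CPM in shCtrl libraries. The groups lay far apart, and the log2 fold change was -0.97 (SE 0.038, adjusted p = 2.87e-23, edgeR). KIF15 (kinesin-12), which acts beside KIF11 on bundled microtubules, had 10.1, 10.6 and 10.7 CPM in shMEX3A libraries and 17.1, 19.3 and 18.9 CPM in shCtrl libraries. It fell by 0.81 on the log2 scale (SE 0.068, adjusted p = 2.74e-13, edgeR). KIFC1 (kinesin-14), a minus-end motor that focuses poles and clusters extra centrosomes, had 47.4, 48.5 and 48.9 CPM in shMEX3A libraries, against 82.8, 82.2 and 81.8 CPM in shCtrl libraries, with no overlap. Its log2 fold change was -0.77 (SE 0.037, adjusted p = 1.45e-20, edgeR). KIF11 and KIFC1, which act on the poles in opposite directions, stood at 51.0% and 58.6% of the shCtrl level.

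The depolymerases and plus-end length regulators fell unevenly. KIF2C (MCAK, kinesin-13), which removes tubulin at centromeres and helps to correct wrong attachments, had 42.0, 44.8 and 41.9 CPM in shMEX3A libraries, against 69.9, 67.1 and 67.9 CPM in shCtrl libraries. Its groups did not overlap (log2 fold change -0.67, SE 0.040, adjusted p = 1.29e-17, edgeR). KIF2A, a paralogue that acts at spindle poles and also outside mitosis, averaged 65.2 ± 2.85 CPM in shMEX3A and 75.8 ± 3.18 CPM in shCtrl (log2 fold change -0.22, SE 0.039, adjusted p = 8.31e-06, edgeR), and its call was lost once GC content and length entered as offsets (-0.06, adjusted p = 0.115, edgeR). Of its exon bases 8.97% lie under exons of IPO11 on the same strand. The kinesin-8 motors, which damp chromosome movements (KIF18A) and shorten astral microtubules (KIF18B), had the other small changes of the class. KIF18A had 17.2, 17.7 and 18.9 CPM in shMEX3A libraries and 18.2, 18.4 and 19.2 CPM in shCtrl libraries, so its groups overlapped, and its log2 fold change of -0.06 had a 95% interval of -0.18 to 0.06 (adjusted p = 0.402, edgeR), and was 0.10 with GC content and length offsets. KIF18B averaged 28.4 ± 1.03 CPM in shMEX3A and 34.2 ± 0.501 CPM in shCtrl and fell by 0.27 (SE 0.049, adjusted p = 6.96e-06, edgeR), and by 0.48 with those offsets. Per kb of exon, the ratio of KIF18A to KIF11 was 0.429 ± 0.016 in shMEX3A and 0.227 ± 0.012 in shCtrl (SD, n = 3 each). Both kinesin-8 promoters carry a CHR and at least 1 CCAAT box, as do those of KIF11 and KIF23.

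Chromokinesins, which bind chromosome arms, both fell. KIF4A (kinesin-4), which condenses chromosomes and joins PRC1 at the midzone, had 33.7, 32.2 and 32.1 CPM in shMEX3A libraries, against 58.8, 61.6 and 63.6 CPM in shCtrl libraries (log2 fold change -0.91, SE 0.043, adjusted p = 9.76e-21, edgeR). The closely related KIF4B, an intronless copy, had 4, 0 and 0 counts in shMEX3A libraries and 1, 0 and 1 in shCtrl libraries and was not tested. KIF4B shares 13.4% of the 50-base words of KIF4A transcripts, so the split of counts between the 2 genes is uncertain. Their CHR windows above differ in 2 of 30 letters. KIF22 (Kid, kinesin-10), which pushes arms away from the poles, had 63.9, 64.4 and 66.7 CPM in shMEX3A libraries, against 95.96, 99.3 and 95.8 CPM in shCtrl libraries. Its groups did not overlap, with a log2 fold change of -0.58 (SE 0.036, adjusted p = 5.28e-17, edgeR), and of -0.69 with GC content and length offsets. Per kb of exon KIF22 had the highest mean of the mitotic members in shMEX3A, at 15.1 ± 0.350, followed by KIFC1 at 14.4 ± 0.227. In shCtrl KIFC1 came before KIF22, at 24.6 ± 0.152 and 22.5 ± 0.457. Of KIF22's exon bases 13.01% lie under a gene on the other strand.

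Motors of the midzone and midbody fell in all 4 cases. KIF20A (MKLP2, kinesin-6), which brings the chromosomal passenger complex to the midzone, had 32.2, 33.5 and 28.9 CPM in shMEX3A libraries, against 78.6, 77.5 and 77.4 CPM in shCtrl libraries. KIF20A thus stood 2.46-fold lower, with a log2 fold change of -1.30 (SE 0.044, adjusted p = 5.11e-25, edgeR), the largest fall among the tested mitotic kinesins. KIF23 (MKLP1, kinesin-6), the motor of centralspindlin, had 30.1, 28.7 and 28.0 CPM in shMEX3A libraries and 57.9, 57.3 and 55.8 CPM in shCtrl libraries (log2 fold change -0.98, SE 0.044, adjusted p = 1.59e-21, edgeR). KIF20B, which acts late in cytokinesis, had 16.6, 17.0 and 15.0 CPM in shMEX3A libraries, against 28.5, 27.4 and 28.5 CPM in shCtrl libraries (log2 fold change -0.79, SE 0.057, adjusted p = 4.10e-15, edgeR). KIF14 (kinesin-3), which works with citron kinase at the midbody, had 10.2, 9.30 and 8.35 CPM in shMEX3A libraries and 16.9, 15.1 and 16.8 CPM in shCtrl libraries (log2 fold change -0.81, SE 0.075, adjusted p = 3.32e-12, edgeR). In none of the 4 did an shMEX3A library reach the lowest shCtrl library.

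**Figure D4:**
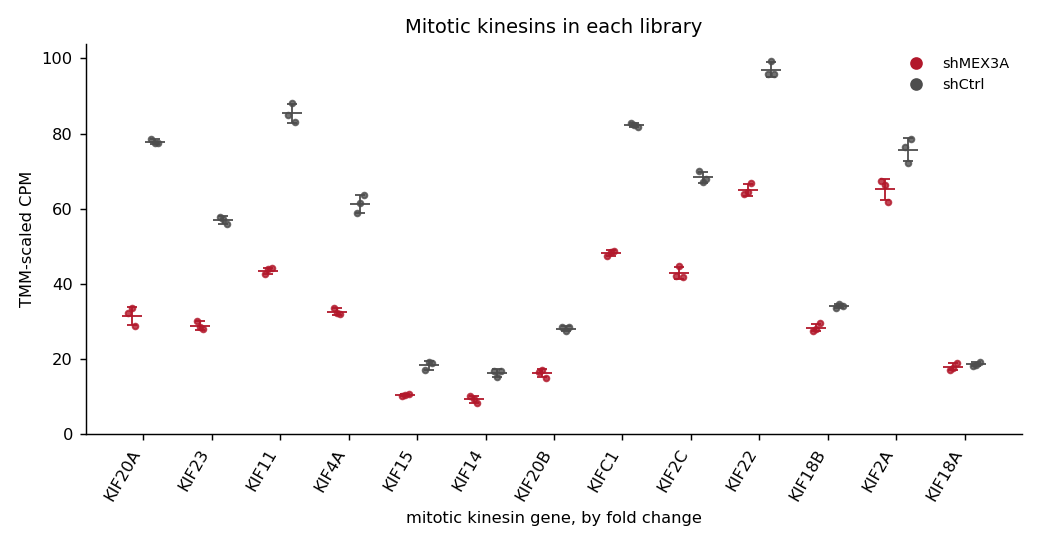
TMM-scaled CPM of the 13 tested mitotic kinesins in each library (points), with mean and SD, shMEX3A left of shCtrl for each gene, ordered by fold change. The arms are apart for 12 genes and overlap for KIF18A alone, at 17.2 to 18.9 CPM in shMEX3A and 18.2 to 19.2 CPM in shCtrl.

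CENPE, the kinesin-7 of kinetochores, is a mitotic kinesin without a KIF symbol and averaged 8.62 ± 0.669 CPM in shMEX3A and 17.1 ± 0.541 CPM in shCtrl (log2 fold change -0.99, SE 0.072, adjusted p = 4.03e-15, edgeR). STARD9, a centrosomal kinesin, went the other way, with 35.3 ± 0.676 CPM in shMEX3A and 26.5 ± 0.488 CPM in shCtrl (log2 fold change 0.41, SE 0.048, adjusted p = 1.18e-09, edgeR). Among 25 spindle and midzone partners of the mitotic kinesins 21 fell (84%) and 3 rose (12%), with a median of -0.60. Among all tested genes 35.6% fell and 34.0% rose. CDK1, the kinase that drives entry into mitosis and phosphorylates KIF11, had a log2 fold change of -1.17 (SE 0.042), and RACGAP1, the partner of KIF23 in centralspindlin, had -0.96 (SE 0.038). The partners that rose were the pole protein NUMA1 at 0.51 (SE 0.031), the plus-end protein CLASP1 at 0.28 and the polymerase CKAP5 at 0.18, of which NUMA1 has 24.9% of its exon bases under exons of other genes on the opposite strand. Of 6 proliferation markers 5 fell and 0 rose (median -0.76). MKI67 averaged 245 ± 12.8 CPM in shMEX3A and 422 ± 17.5 CPM in shCtrl, and the summed level of the 6 markers was 662 to 691 CPM in shMEX3A and 990 to 1027 CPM in shCtrl. In these bulk libraries fewer cells in G2 and mitosis and less kinesin RNA per such cell cannot be told apart, and the part of proliferation in the falls of mitotic kinesins was not tested.

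Kinesin-1, the main carrier of vesicles and mitochondria toward plus ends, is a pair of heavy chains (KIF5A, KIF5B or KIF5C) with a pair of light chains. KIF5B, the heavy chain of most tissues, had 169, 172 and 173 CPM in shMEX3A libraries, against 264, 262 and 267 CPM in shCtrl libraries. It fell by 0.63 on the log2 scale (SE 0.030, adjusted p = 1.58e-20, edgeR), and stood at -0.51 with GC content and length offsets. The KIF5B promoter was the one of the 12 transport promoters with a CHR word, 140 bases before the start. KIF5A, known mainly from neurons, averaged 36.8 ± 1.64 CPM in shMEX3A and 28.1 ± 2.17 CPM in shCtrl and rose by 0.39 (SE 0.053, adjusted p = 4.44e-08, edgeR). KIF5C stayed at 19 to 56 counts per library and did not pass (log2 fold change 0.19, 95% interval -0.40 to 0.78, adjusted p = 0.569, edgeR), with a value of -0.17 without shMEX3A replicate 2. Per kb of exon, KIF5A stood at a ratio to KIF5B of 0.202 ± 0.008 in shMEX3A and 0.0999 ± 0.008 in shCtrl (SD, n = 3 each).

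The light chains and cargo adaptors went both ways, with 10 higher (40%) and 8 lower (32%) of 25 tested and a median of -0.00. These shares lay near those of all tested genes, 34.0% higher and 35.6% lower. The light chains differed in direction. KLC4 averaged 13.6 ± 0.973 CPM in shMEX3A and 20.8 ± 0.797 CPM in shCtrl (log2 fold change -0.62, SE 0.064, adjusted p = 6.91e-11, edgeR), KLC1 rose by 0.31 (SE 0.032), and KLC3 was too low to test. KLC2 averaged 120 ± 4.88 CPM in shMEX3A and 53.6 ± 2.65 CPM in shCtrl (log2 fold change 1.16, SE 0.040, adjusted p = 1.17e-24, edgeR). Exons of other genes overlap 40.6% of the exon bases of KLC1, 9.58% of KLC2 and 12.8% of KLC4. MAPK8IP3 (JIP3), a scaffold that links kinesin-1 to vesicles and to the JNK pathway, averaged 123 ± 5.60 CPM in shMEX3A and 29.3 ± 1.12 CPM in shCtrl (log2 fold change 2.07, SE 0.042, adjusted p = 1.49e-32, edgeR). MAPK8IP2 (JIP2), another scaffold for kinesin-1, averaged 14.2 ± 0.770 CPM in shMEX3A and 31.3 ± 1.06 CPM in shCtrl (log2 fold change -1.14, SE 0.058, adjusted p = 7.23e-20, edgeR). TRAK2, which ties kinesin and dynein to mitochondria, fell to 114 ± 0.904 CPM in shMEX3A, against 164 ± 2.65 CPM in shCtrl. The JIP scaffolds JIP3 and JIP2 thus went in opposite directions, and of the light chains KLC1 and KLC2 rose while KLC4 fell.

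Kinesin-2, which drives intraflagellar transport and late endosome movement, is a heterodimer of KIF3A with KIF3B or KIF3C plus KIFAP3. KIF3B averaged 79.4 ± 0.975 CPM in shMEX3A and 115 ± 1.88 CPM in shCtrl and fell by 0.54 (SE 0.034, adjusted p = 1.16e-16, edgeR). KIF3C averaged 61.9 ± 1.69 CPM in shMEX3A and 55.2 ± 1.00 CPM in shCtrl (log2 fold change 0.16, SE 0.038, adjusted p = 0.000263, edgeR), a call lost with GC content and length offsets (-0.01, adjusted p = 0.736). KIF3A, the shared partner, did not pass, with a log2 fold change of -0.12 (95% interval -0.23 to -0.00, adjusted p = 0.0615, edgeR), though it passed without the low-count filter (adjusted p = 0.0492) and without shMEX3A replicate 2 (0.0289) or shCtrl replicate 3 (0.0200), and stood at -0.01 with GC content and length offsets. Per kb of exon, KIF3C stood at a ratio to KIF3B of 0.716, 0.754 and 0.758 in shMEX3A libraries, against 0.461, 0.463 and 0.448 in shCtrl libraries, with no overlap. KIFAP3, the subunit that binds cargo, had a log2 fold change of -0.36. The homodimeric KIF17 was weakly expressed, with 43, 54 and 42 counts in shMEX3A libraries and 22, 12 and 28 counts in shCtrl libraries, and rose by 1.13 (SE 0.281, adjusted p = 0.000527, edgeR).

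Of the kinesin-3 carriers, KIF1C had the highest mean level per kb of exon among all KIF genes in both arms, though in shCtrl it lay within its SD of KIF5B. KIF1C, a fast vesicle carrier that also moves mRNA into protrusions, had 451, 476 and 468 CPM in shMEX3A libraries and 384, 394 and 388 CPM in shCtrl libraries, with no overlap. It rose by 0.26 on the log2 scale (SE 0.030, adjusted p = 7.54e-10, edgeR), and by 0.09 with GC content and length offsets. KIF1A, a carrier of synaptic vesicles that is mainly neuronal, was weakly expressed and had the largest fall of all tested kinesins, with 21, 42 and 11 counts in shMEX3A libraries, against 101, 81 and 86 counts in shCtrl libraries. This was 0.509, 0.892 and 0.325 CPM in shMEX3A libraries and 2.31, 2.28 and 2.14 CPM in shCtrl libraries (log2 fold change -1.91, SE 0.239, adjusted p = 9.74e-09, edgeR). Of 6 neuronal markers, with SYT1 at 0, 2 rose and 2 fell, or 40% each of the 5 tested. Both shares lay near those of all tested genes, 34.0% higher and 35.6% lower. The summed level of the 6 markers was 285 to 290.1 CPM in shMEX3A and 272 to 279 CPM in shCtrl. TUBB3 made up most of that sum, at 261 ± 1.81 CPM in shMEX3A and 247 ± 2.61 CPM in shCtrl. The number that rose was 1 without the low-count filter, with GC content and length offsets and without shCtrl replicate 3, and the number that fell was 1 without shMEX3A replicate 1 or shCtrl replicate 1. Their part in the changes of KIF1A and KIF5A was not tested. KIF16B, which positions early endosomes, and KIF13A, which carries recycling endosomes, fell by 0.34 (SE 0.058) and 0.23 (SE 0.038). KIF13B had a log2 fold change of 0.12 (SE 0.035), a call lost with GC content and length offsets (-0.05, adjusted p = 0.155). KIF1B, with isoforms that carry mitochondria or synaptic vesicle precursors, had -0.09 (95% interval -0.16 to -0.02). Its call was lost under DESeq2 (adjusted p = 0.0544), without shMEX3A replicate 2 (0.112) or replicate 3 (0.0864), and when the test covered genes with a known GC content (0.0560), and its groups overlapped. With GC content and length offsets it kept the call, at -0.14.

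The remaining transport members were the kinesin-4 motors KIF21A and KIF21B, which limit microtubule growth, and the kinesin-14 motors KIFC2 and KIFC3. KIFC3, a minus-end motor of apical transport and of epithelial junctions, had 237, 233 and 242 CPM in shMEX3A libraries, against 136, 142 and 135 CPM in shCtrl libraries. The lowest shMEX3A library lay far above the highest shCtrl library, and the log2 fold change was 0.78 (SE 0.032, adjusted p = 5.86e-23, edgeR), or 1.72-fold higher. With GC content and length offsets the log2 fold change of KIFC3 was 0.57. Its family member KIFC1 fell, as described above, so the 2 minus-end motors went opposite ways. KIFC2 did not pass (log2 fold change -0.07, 95% interval -0.17 to 0.03, adjusted p = 0.228, edgeR), although it was called lower with GC content and length offsets (-0.26, adjusted p = 1.84e-06). KIF21A rose by 0.22 (SE 0.050, adjusted p = 0.000155, edgeR). KIF21B had -0.19 (SE 0.084, adjusted p = 0.0446, edgeR), and its call was lost in 10 alternatives, among them DESeq2 (adjusted p = 0.128), limma voom (0.0502) and without shMEX3A replicate 1 (0.298). With GC content and length offsets it kept the call, with a larger fall of -0.47 (adjusted p = 3.14e-06).

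The order of the leading transport motors thus differed between the arms. Per kb of exon, shMEX3A libraries held KIF1C at 54.2 ± 1.49, KIF5B at 29.1 ± 0.391, KIFC3 at 24.7 ± 0.440 and KIF3B at 13.01 ± 0.160, while shCtrl libraries held KIF1C at 45.3 ± 0.564, KIF5B at 44.9 ± 0.378, KIF3B at 18.9 ± 0.308 and KIFC3 at 14.4 ± 0.368. The ratio of KIF1C to KIF5B was 1.86 ± 0.031 in shMEX3A and 1.01 ± 0.018 in shCtrl (SD, n = 3 each), where the 2 genes did not differ beyond their spread. KIFC3 made up 14.05% of the class total per kb in shMEX3A and 8.09% in shCtrl, and KIF5B made up 16.5% in shMEX3A and 25.3% in shCtrl. Levels per kb use exon lengths of GENCODE 29, which need not be the transcripts these cells use. They carry no GC content and length offsets.

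**Figure D5:**
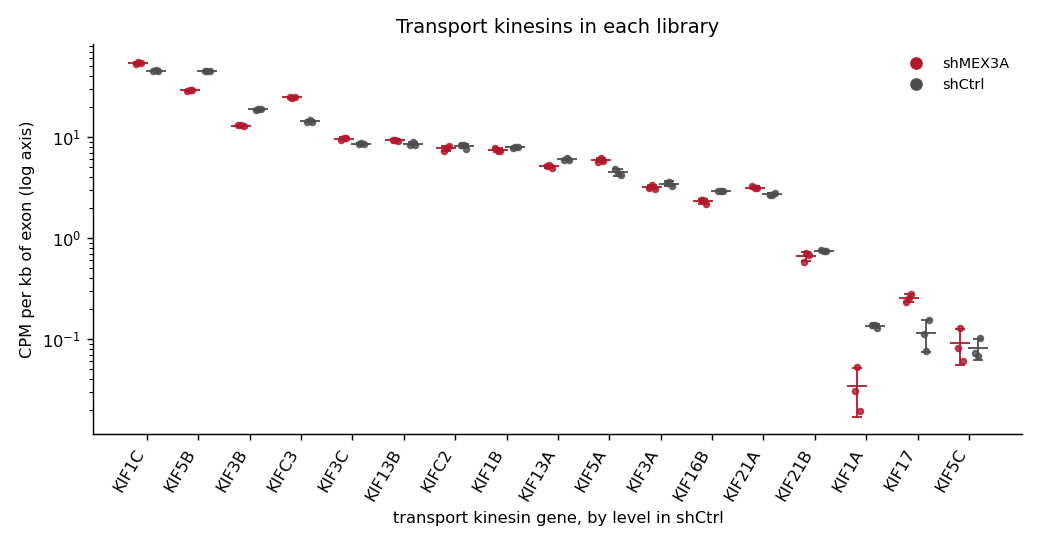
CPM per kb of exon of the 17 transport kinesins in each library on a log axis, with mean and SD, shMEX3A left of shCtrl, ordered by level in shCtrl. KIF1C has the highest mean in both arms, KIF5B is at 29.1 in shMEX3A and 44.9 in shCtrl, and KIFC3 is at 24.7 in shMEX3A and 14.4 in shCtrl.

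Of the ciliary and other kinesins, KIF24, KIF12 and KIF9 fell. KIF24 (kinesin-13), a centriolar depolymerase that holds back cilium assembly in cycling cells, had 6.93, 6.20 and 5.49 CPM in shMEX3A libraries, against 16.3, 16.7 and 15.7 CPM in shCtrl libraries. It was 2.60-fold lower (log2 fold change -1.38, SE 0.079, adjusted p = 4.12e-18, edgeR), the largest fall of any kinesin above 1 CPM in both arms, and its promoter was the one of 7 in this class with a CHR word. KIF12, known from kidney and liver epithelium, had 13.8, 14.4 and 14.6 CPM in shMEX3A libraries and 25.0, 27.1 and 25.0 CPM in shCtrl libraries (log2 fold change -0.85, SE 0.059, adjusted p = 1.14e-15, edgeR), and was the most abundant of the class per kb. KIF9, of the central pair of motile cilia, had 3.51, 3.82 and 3.72 CPM in shMEX3A libraries, against 5.79, 5.59 and 5.96 CPM in shCtrl libraries (log2 fold change -0.65, SE 0.106, adjusted p = 1.21e-06, edgeR), and 17.9% of its exon bases lie under exons of KIF9-AS1 or KLHL18 on the other strand.

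The other 4 tested members of the class did not pass. KIF7, the tip kinesin of Hedgehog signalling, averaged 10.4 ± 0.363 CPM in shMEX3A and 10.2 ± 0.987 CPM in shCtrl, with a log2 fold change of 0.03 (95% interval -0.13 to 0.19). With GC content and length offsets it was called lower (-0.23, adjusted p = 0.00749), and its paralogue KIF27 was called higher (0.27, adjusted p = 0.00361), against 0.15 (95% interval -0.02 to 0.32) without them. KIF26B, which acts in adhesion, had 0.09 (adjusted p = 0.0538, edgeR). It passed in separate fits with DESeq2 size factors (0.0330), with 1 CPM required in 3 libraries (0.0249) and with genes of unknown GC content left out (0.0174). With GC content and length offsets its sign turned (-0.07, adjusted p = 0.113). KIF6 had 17, 9 and 14 counts in shMEX3A libraries and 28, 15 and 20 counts in shCtrl libraries.

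Of 18 tested genes of intraflagellar transport, the cargo trains that kinesin-2 pulls, 13 fell and 0 rose, with a median of -0.32. The share that fell was 72.2%, against 35.6% lower and 34.0% higher in all tested genes. IFT22 had a log2 fold change of -1.04 (SE 0.043) and CLUAP1 of -0.79 (SE 0.052). With GC content and length offsets 2 of these genes rose. A rise of 1 of them was called with DESeq2 size factors, with at least 1 CPM in 3 libraries, without shMEX3A replicate 3, without shCtrl replicate 2 and on the genes with a known GC content. Of the 3 tested markers of motile cilia all fell, with the outer arm dynein DNAH5 at 49.0 ± 0.453 CPM in shMEX3A and 129 ± 2.52 CPM in shCtrl and the master regulator FOXJ1 at 0.499 ± 0.084 CPM in shMEX3A and 1.17 ± 0.420 CPM in shCtrl. The third, RSPH1, had 12, 14 and 5 counts in shMEX3A libraries and 28, 17 and 21 counts in shCtrl libraries. With at least 1 CPM required in 3 libraries, the number of these markers called lower was 1.

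Dynein, the minus-end motor that works against most kinesins on the same cargoes, was counted beside them. Of 28 tested genes of dynein, dynactin and their adaptors 16 rose (57.1%) and 6 fell (21.4%), with a median of 0.12. In all tested genes 34.0% rose and 35.6% fell. The heavy chain DYNC1H1 averaged 1514 ± 27.9 CPM in shMEX3A and 884 ± 28.1 CPM in shCtrl (log2 fold change 0.78, SE 0.030), and the light chain DYNLRB1 averaged 115 ± 2.39 CPM in shMEX3A and 31.8 ± 2.33 CPM in shCtrl (log2 fold change 1.85, SE 0.043). The adaptors HOOK1 and SPDL1 (Spindly, which recruits dynein to kinetochores) fell by 0.72 (SE 0.053) and 0.48 (SE 0.036).

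The 5 kinesins not tested were at or near 0. KIF2B, a depolymerase of early mitosis, and KIF19, of motile cilia, had 0 counts in all 6 libraries, and a count of 0 allows up to 3 counts, or 0.0622 to 0.0865 CPM by library, for counting error only. KIF25 had 1 count in all. KIF26A, an atypical kinesin, had 1, 0 and 2 counts in shMEX3A libraries and 4, 6 and 9 counts in shCtrl libraries. KIF4B is described above.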

How the data were processed

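The authors deposited 1 table of raw read counts per gene for the 6 libraries. The submitters' processing notes list edgeR 4.0.16, fastp 0.20.0, GRCh38, HTSeq 2.0.4 and STAR, without their roles. Neither strand setting nor annotation is stated in the labels, so reads of overlapping genes cannot be told apart. From these counts edgeR 4.0.16 in R 4.3.3 gave the tests (filterByExpr, TMM, robust quasi-likelihood fit, 4 residual degrees of freedom), with Benjamini-Hochberg adjustment over 15679 genes. Standard errors came from the F statistic. Alternatives used DESeq2 1.42.0, limma 3.58.1, other scalings, filters, offsets and omitted libraries. The tests were checked on simulated data. Exon lengths and overlaps came from GENCODE 29, which matched 27401 of 42656 rows, and promoters from RefSeq (GRCh38.p14). Libraries of an arm differed by more than sampling noise (chi-square per degree of freedom 2.69 to 6.15), and each counted as 1 sample. These differences may be technical, so they do not show that the libraries came from separate cultures.

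The members, classes and gene lists were chosen with earlier results of these data known. Each called member changed at least 1.5-fold with a mean of at least 1 CPM, and the most abundant member of each class per kb, is given in every library. Each list gives up to 2 called genes with the smallest p in each direction. Outside this rule, CKAP5, KIFAP3, KLC1, KLC3, KLC4 and further library values (KIF17, KIF18A, KIF6 and the untested members) were added with their values known.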

Additional observations from a re-analysis of the deposited data

How the results depend on the processing

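Under every alternative run, 11 or 12 mitotic kinesins were called lower, and KIF2A with GC content and length offsets was the one call lost. KIF18A, never called, had a log2 fold change of -0.09 to 0.10 over the alternatives. Of the values of single KIF genes, 527 stayed on the same side of the test (4 of them with another sign, below), 15 (of 3 genes) lost the call, 8 (of 4 genes) gained it and 3 changed sign where either fit made a call, with the GC content and length offsets: KIF13B (-0.050), KIF3C (-0.014) and KIF7 (-0.23). A further 4 values changed sign with a call in neither fit: KIF18A (0.10) and KIF26B (-0.07) with the offsets, KIF5C (-0.17) without shMEX3A replicate 2 and KIF7 (-0.05) without shCtrl replicate 3. The neuronal marker TUBB3 changed sign there too (-0.017). The cause was not tested. Ciliary and other kinesins called higher numbered 1 in place of 0 with DESeq2 size factors, with at least 1 CPM in 3 libraries, with the offsets and, chosen after seeing the data, on the genes of that fit without offsets.

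The median log2 fold change of mitotic kinesins was -0.78 with DESeq2 size factors, at least 1 CPM or DESeq2, -0.70 with the offsets, -0.77 on the same genes without them and -0.80 without KIF2A, and it ran from -0.81 to -0.75 when 1 library was left out. The median log2 fold change of transport kinesins ran from -0.0844 to -0.0240 (without shMEX3A replicate 1) when 1 library was left out. That of all tested genes was 0.0015 with DESeq2 size factors, 0.0017 with DESeq2, 0.0039 with the offsets, -0.0039 on those genes without them, -0.0091 with upper-quartile factors and -0.0068 with limma voom, and it ran from -0.0134 to -0.0035 when 1 library was left out.

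No pairing of the libraries by replicate number was seen, though 3 libraries per arm cannot exclude that same-numbered libraries were handled together. Deviations from the group means of same-numbered libraries correlated at -0.0309, 0.0772 and -0.0769, and shMEX3A replicate 1 correlated best with shCtrl replicate 3. With the replicate number as a block 10751 genes were called, of which 10699 are among the 10925 called without it, and KIF genes called numbered 7 higher and 22 lower. Depth limits the weakly expressed KIF1A, KIF5C, KIF6 and KIF17 most, with SEs of 0.239 to 0.365.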

Other observations

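Rows for antisense genes of kinesins were weak and entered no comparison. KIF9-AS1 had 69, 88 and 61 counts in shMEX3A libraries and 68, 44 and 70 counts in shCtrl libraries. KIF23-AS1 had 20, 23 and 18 counts in shMEX3A libraries and 21, 25 and 29 counts in shCtrl libraries.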
